A study of Mus musculus with 4 samples.

Results

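The chromatin of 10 fibroblast growth factor (FGF) genes was compared between bone mesenchymal stem cells (MSCs) of old and of young mice: the ligands Fgf1, Fgf2, Fgf7, Fgf9, Fgf10 and Fgf18, the receptors Fgfr1, Fgfr2 and Fgfr3, and the receptor-like gene Fgfrl1. Accessible sites were measured by ATAC-seq, in which a transposase cuts and tags open DNA, so that the density of fragments over a site is a measure of how open it is. Peaks were taken as belonging to a gene when they overlapped it or the 5 kb upstream of its start in the GENCODE vM21 annotation (GRCm38, the assembly that mm10 names). This rule found 302 of the 117282 peaks of the series. Each group held 2 samples, from mice aged 18 to 22 months (old) or 3 to 5 months (young). All 4 samples came from bone MSCs kept at 2% O2 in αMEM with fetal bovine serum, and no genetic change or agent separated the groups. The study's methods give C57BL/6N mice and cells from hind limb bone sorted as CD45-, TER-119-, CD140a+ and Sca-1+, but they describe this for young mice, and sex was stated only there. Nothing in the labels says whether the 2 samples of a group came from separate mice or cultures, so the spread between them may be technical. The limma p-values below set each difference against this spread after it was drawn towards that of all peaks or genes of similar strength.

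Of the 302 peaks, 248 were assigned to Fgfr2, because 1 of its 27 transcripts, Fgfr2-217, is annotated over 2960900 bp. The other 26 transcripts cover 103813 bp on chromosome 7, from 130162451 to 130266263. The long transcript alone reached 235 peaks, and 160 of these lay at 26 other protein-coding genes. When Fgfr2 was taken without it, 67 peaks remained for the 10 genes. This restriction was chosen after the annotation and the data had been seen. Results are given for both sets, and the individual loci are described on the 67 peaks, of which 13 lay at Fgfr2, 11 each at Fgf1 and Fgf10, 10 at Fgf2, 7 at Fgfr1, 5 each at Fgf7 and Fgf18, 3 at Fgfr3, and 1 each at Fgf9 and Fgfrl1.

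FGF ligands are secreted proteins that bind receptor tyrosine kinases on the cell surface together with heparan sulfate chains, and the activated receptors signal mainly through the RAS and MAP kinase cascade, with Sprouty and Spred proteins and the phosphatase Dusp6 as feedback inhibitors. In the skeleton, Fgfr1 and Fgfr2 act in cells of the osteoblast lineage, Fgfr3 restrains the growth of cartilage in the growth plate, and Fgf9 and Fgf18 are ligands of bone and cartilage development. Fgf2 is a standard additive for the expansion of MSCs in culture. Fgf7 and Fgf10 are made by mesenchymal cells and signal mainly to epithelial cells that carry a splice form of Fgfr2.

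Promoter windows of Fgf18, Fgfrl1, Fgfr2 and Fgf7 are shown 5′ to 3′ because they include the highest and the lowest number of CpG sites among the windows found. The centres of 3 peaks are shown because the old and young values there were among the furthest apart. The promoter sequences are RefSeq entries (GRCm38.p6) with 250 bases before and 50 after a start, which were found for 8 of the 10 genes, in 9 windows that all lay inside a promoter peak of their gene. Capitals mark matches on either strand to 8 motifs: AP-1 (TGANTCA), the GC box (GGGCGG), RUNX (TGTGGT), TEAD (GGAATG), ETS (CCGGAAGT), the CCAAT box (CCAAT), the TATA box (TATAAA) and the core of the hypoxia response element (ACGTG).
Fgf18 promoter, chr11:33147351-33147650, minus strand: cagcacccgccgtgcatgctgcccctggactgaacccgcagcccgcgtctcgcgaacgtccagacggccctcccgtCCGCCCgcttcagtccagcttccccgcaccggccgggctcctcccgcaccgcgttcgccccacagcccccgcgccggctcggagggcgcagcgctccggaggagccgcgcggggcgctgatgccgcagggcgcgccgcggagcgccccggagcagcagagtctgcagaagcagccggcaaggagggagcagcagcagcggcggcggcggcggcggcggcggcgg
Fgfrl1 promoter, chr5:108693979-108694278, plus strand: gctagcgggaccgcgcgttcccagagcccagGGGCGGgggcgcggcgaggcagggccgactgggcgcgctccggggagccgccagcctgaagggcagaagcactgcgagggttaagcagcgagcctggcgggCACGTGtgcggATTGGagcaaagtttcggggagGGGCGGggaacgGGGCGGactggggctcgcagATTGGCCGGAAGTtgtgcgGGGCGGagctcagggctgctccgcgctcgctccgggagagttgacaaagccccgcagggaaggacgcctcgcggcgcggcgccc
Fgfr2 promoter, chr7:130266759-130267058, minus strand: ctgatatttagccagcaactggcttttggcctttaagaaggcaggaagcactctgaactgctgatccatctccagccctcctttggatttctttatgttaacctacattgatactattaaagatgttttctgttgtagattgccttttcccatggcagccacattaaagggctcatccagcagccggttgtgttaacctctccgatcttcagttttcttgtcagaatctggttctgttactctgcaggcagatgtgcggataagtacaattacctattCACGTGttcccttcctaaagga
Fgf7 promoter, chr2:126034408-126034707, plus strand: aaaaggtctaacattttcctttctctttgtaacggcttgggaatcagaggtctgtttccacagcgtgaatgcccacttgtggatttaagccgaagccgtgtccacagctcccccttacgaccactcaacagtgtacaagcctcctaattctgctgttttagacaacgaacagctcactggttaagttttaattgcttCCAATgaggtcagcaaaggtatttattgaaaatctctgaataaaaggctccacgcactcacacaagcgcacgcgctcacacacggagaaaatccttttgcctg
Fgfr2 peak centre, chr7:130201351-130201650, plus strand: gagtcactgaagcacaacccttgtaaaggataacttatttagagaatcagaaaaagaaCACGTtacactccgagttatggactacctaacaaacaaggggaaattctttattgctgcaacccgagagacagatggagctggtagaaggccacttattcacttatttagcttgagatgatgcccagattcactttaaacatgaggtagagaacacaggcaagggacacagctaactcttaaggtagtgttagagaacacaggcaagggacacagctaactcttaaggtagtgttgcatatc
Fgfr3 peak centre, chr5:33716551-33716850, plus strand: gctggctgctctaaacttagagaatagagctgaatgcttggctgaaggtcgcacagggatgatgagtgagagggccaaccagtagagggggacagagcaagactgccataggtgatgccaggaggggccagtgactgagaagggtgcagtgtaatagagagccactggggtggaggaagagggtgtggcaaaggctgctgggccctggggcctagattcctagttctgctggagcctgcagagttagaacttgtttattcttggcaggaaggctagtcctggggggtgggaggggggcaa
Fgf10 peak centre, chr13:118736651-118736950, plus strand: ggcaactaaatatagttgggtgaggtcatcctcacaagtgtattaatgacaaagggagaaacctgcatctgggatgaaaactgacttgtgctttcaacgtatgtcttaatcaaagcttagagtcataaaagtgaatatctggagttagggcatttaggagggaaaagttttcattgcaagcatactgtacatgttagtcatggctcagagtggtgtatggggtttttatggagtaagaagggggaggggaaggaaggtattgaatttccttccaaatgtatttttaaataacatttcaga

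The Fgf18 window held 47 CpG sites at a GC content of 78.7% and 1 GC box. The Fgfrl1 window held 37 CpG sites at 73.7%, with 4 GC boxes, 2 CCAAT boxes and 1 ETS match next to one of them. The Fgfr2 window had 4 CpG sites at 43.7% and no GC box, and its CACGTG run matches ACGTG on both strands. This window lies upstream of 130266263, the outermost start of the Fgfr2 transcripts other than the long one, and does not describe the whole promoter peak. Over that peak the GC content was 53.4%, and the ratio of observed to expected CpG sites was 0.61. The ratio was 0.58 over the promoter peak of Fgf18, 0.32 at Fgfrl1 and 0.20 at Fgf7. The Fgf7 window had 11 CpG sites at 45.7% and 1 CCAAT box. Among all 32851 promoter entries of the reference, 35.7% held a GC box, 37.4% a CCAAT box, 19.6% ACGTG and 3.89% the ETS letters. Of the 3 peak centres, the one at Fgfr2 held ACGTG, as did 15.1% of the 113748 peak centres of the same length, and the Fgfr3 and Fgf10 centres held none of the 8 motifs. A match of letters describes the window and does not show that a factor binds there.

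The values analysed are peak counts scaled to 10000000 per library and then divided by a relative log expression (RLE) factor per sample, which sets the typical peak to no change. The libraries held between 28259470 and 32559794 counts, and the 67 peaks between 3 and 1159 counts per sample, with a median of 71.5. As deposited, values were lower in the old group at 74.6% of all peaks, and the log2 fold change (old minus young, on log2(value + 1)) had a median of -0.27. The summed peak values were 43.8% and 50.3% of the 10000000 in old and 57.5% and 62.9% in young samples, and peaks of the mitochondrial chromosome held 15.7% and 6.52% of these sums in old and 13.5% and 14.5% in young samples. The share in peaks thus moved with the groups, while the mitochondrial shares of the old samples lay on both sides of the young ones, lowest in old replicate 2. The part of library composition in the FGF results was not tested. After RLE scaling the median was 0.0011, so fold changes below are relative to the typical peak and understate those of weak peaks. Promoters of 10 of 10 MSC marker genes carried a peak, as did 3 of 8 blood, 3 of 5 endothelial and 2 of 4 skeletal muscle markers. The defining blood gene Ptprc and the endothelial gene Cdh5 had no promoter peak. The summed RLE-scaled values of these promoters were between 2365 and 2676 in old and 2300 and 2382 in young samples for MSC markers, 118 and 156 against 140 and 145 for blood, 68.9 and 69.3 against 75.4 and 80.3 for endothelial, and 10.1 and 17.6 against 8.90 and 12.9 for muscle markers. The lower endothelial sums of the old samples came from Tek alone (27.1 and 28.1 against 50.1 and 43.0), while Pecam1 and Kdr were higher in both old samples. None of the 18 marker promoters with a peak reached a limma adjusted p under 0.01. An unadjusted p under 0.05 was reached by 4 of the 18, beside 9.65% of all promoter peaks, and the part of other cells in the FGF results was not tested.

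All 10 genes had an accessible promoter, that is, a peak no further than 1 kb from where one of their protein-coding transcripts starts. Where a gene had more than 1 such peak, the one with the highest mean value was taken. For Fgf2 that peak lies over an internal start, 33.1 kb into the gene, and not over its annotated first start. The strongest promoter peaks, per kb of peak and as the mean of the 4 samples, were those of Fgf18 (34.7 RLE-scaled values per kb), Fgfr1 (34.6), Fgfrl1 (33.0) and Fgfr2 (31.8), followed by Fgf1 (28.4) and Fgf2 (28.1). Each of these 6 overlapped its neighbour in the order when the 4 samples were compared. Fgf10 (20.8) and Fgfr3 (18.9) lay apart from those above them and from those below, and Fgf9 (12.9) and Fgf7 (11.2) were lowest and overlapped each other. Among the 16213 promoter peaks of the series, Fgf18 stood at the 63.8th percentile of this density and Fgf7 at the 14.8th. The low density of Fgf7 went with a peak of 24000 bp, the widest of the 67. The share of a gene under peaks was 84.6% for Fgf7 and 61.3% for Fgfrl1, at percentiles 99.01 and 96.9 of the 14164 protein-coding genes of at least 10 kb, whose median was 10.1%. It was 47.2% for Fgfr2, 39.9% for Fgf2 and 10.1% for Fgf10, the lowest of the 10 genes. The Fgf10 share is of a record that begins upstream of its protein-coding start.

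**Figure D1:**
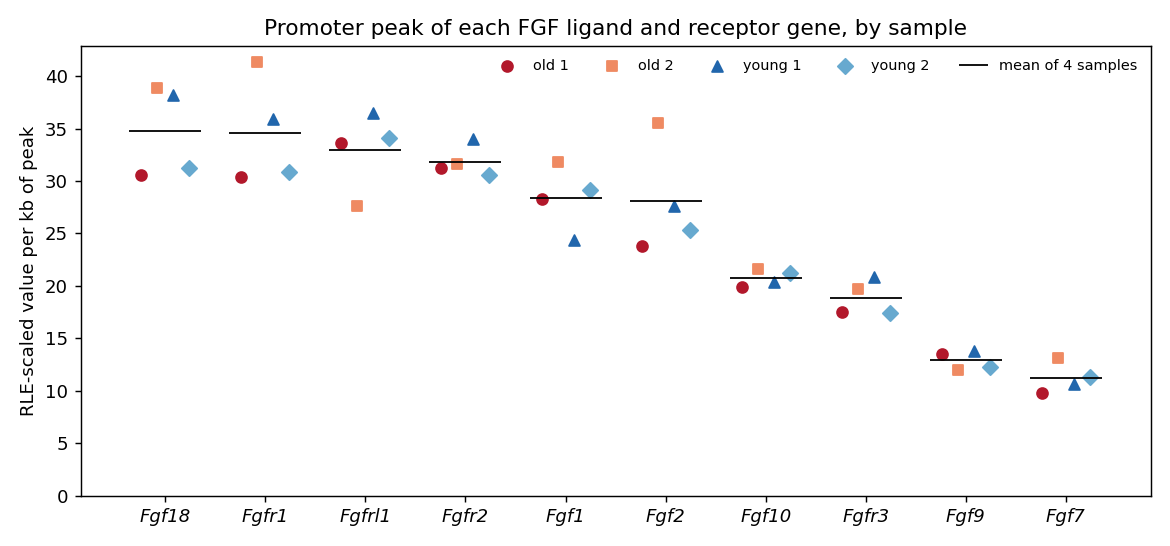
RLE-scaled value per kb of peak (vertical axis) of the promoter peak with the highest mean value of each gene in old samples 1 and 2 and young samples 1 and 2 (points) with the mean of the 4 samples (lines). For Fgf2 this peak lies over an internal start. The genes fall from 34.7 per kb at Fgf18 to 11.2 per kb at Fgf7, and old and young points lie mixed at 9 of the 10 genes.

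Beyond promoters, 38 of the 67 peaks lay in introns, 7 over coding exons, 2 over untranslated exons and 6 outside the protein-coding transcripts of their gene, beside 14 promoter peaks. The densest peak of all was an intronic one of Fgf2 on chromosome 3 from 37359601 to 37361600 (59.5 per kb), followed by introns of Fgf18 (54.3 per kb, chromosome 11 from 33122101 to 33123700) and of Fgfr1 (49.2 per kb, chromosome 8 from 25534101 to 25538700). Each was denser than the promoter of its own gene. The median width of the 67 peaks was 2000 bp, against 1200 bp over all peaks, and 11 of them (16.4%) were at least 5 kb wide, against 4.67% of all peaks.

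To ask whether ageing altered the accessibility of these genes, each peak was tested with limma, and p was adjusted by Benjamini-Hochberg over the 117282 peaks, with 0.01 as the threshold for the adjusted p. No peak of the FGF ligands and receptors passed: 0 of 302 peaks by the rule, 0 of the 67 and 0 of the 14 promoter peaks, where 66 of all peaks (0.0563%) passed. Limma-voom on counts recovered from the values also gave 0 in each of these sets. At an unadjusted p under 0.05, limma found 38 of the 302 peaks (12.6%), 10 of the 67 (14.9%) and 0 of the 14, beside 16.4% of all peaks. Of those 10 peaks, 8 were higher and 2 lower in old MSCs, where 7.49% of all peaks were higher and 8.87% lower at that level. The old and young values did not overlap at 32 of the 67 peaks (47.8%, 17 higher and 15 lower), beside 47.5% of all peaks. Old and young values were apart at 2 of the 14 promoter peaks, both lower in old MSCs, beside 41.4% of all promoter peaks. In all, 32 of the 67 peaks were lower in old MSCs, beside 49.9% of all peaks. The median log2 fold change was 0.045 over the 302 peaks and 0.024 over the 67, and -0.22 and -0.26 on the values as deposited. The 43 peaks of the ligands had a median of -0.040 and the 24 peaks of the receptor genes, 13 of them at Fgfr2, of 0.21. When each old sample was set against each young one, the receptor median lay between 0.039 and 0.39, and it was -0.070 on the values as deposited, where the ligand median was -0.32 and that of all peaks -0.27. Without old replicate 1 (leaving the old group with 1 sample, assumed to vary like the others), 12 of the 302 and 3 of the 67 peaks passed, beside 8.83% of all peaks. The 3 were Fgf2 peaks from 37369301 (log2 fold change 0.77) and 37377601 (0.42) and the Fgfrl1 promoter peak (-0.36), and 2 of these 3 were promoter peaks, beside 11.2% of all promoter peaks. Without old replicate 2 the same 3 peaks were at 0.12, -0.14 and -0.057. In that setting 2 of the 302 and 0 of the 67 passed, beside 1.43% of all peaks, and 1 of the 302 passed on the values as deposited, beside 1.18% of all peaks.

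**Figure D2:**
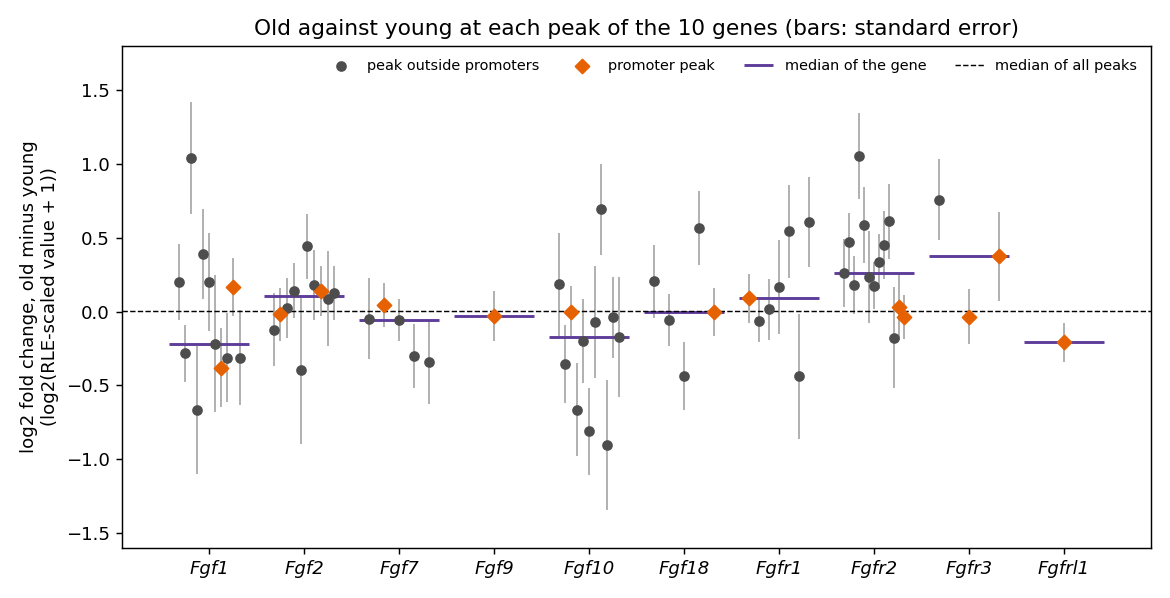
Log2 fold change (old minus young, vertical axis) at each of the 67 peaks, by gene and in genomic order within a gene, with standard errors from limma; diamonds are promoter peaks, thick lines the median of a gene and the dashed line the median of all peaks. Fgfr2 has 11 of 13 points above 0 and Fgf10 has 9 of 11 below 0, while promoter peaks range from -0.38 to 0.37.

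Fgf2, the ligand most used to expand MSCs, had 2 promoter peaks whose values differed little with age. At the one over its annotated first start, on chromosome 3 from 37345801 to 37350100, the RLE-scaled values were 83.5 and 98.5 in old and 97.2 and 86.7 in young samples. The stronger one, from 37377601 to 37385200 over an internal start, had 181 and 270 in old and 210 and 192 in young samples, so that old replicate 2 was highest and old replicate 1 lowest. The difference was 0.14 on the log2 scale, with a standard error of 0.17 (limma adjusted p = 0.735). At the dense intronic peak from 37359601, old replicate 2 was again highest at 150, beside 102 in old replicate 1 and 111 and 113 in the young samples. The largest difference at this gene, in an intron from 37369301 to 37371600, was 0.44 (adjusted p = 0.333, limma). Its values were 55.9 and 88.7 in old and 55.1 and 48.4 in young samples, so old replicate 1 lay within 1 unit of young replicate 1. Of the 10 Fgf2 peaks, 7 were higher and 3 lower in old MSCs.

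Fgf1, a ligand that binds all FGF receptors, lies within the gene Arhgap26, so that its peaks cannot be assigned to one of them alone. Its main promoter peak on chromosome 18, from 38928601 to 38930900, had 65.0 and 73.2 in old and 56.1 and 67.1 in young samples, with overlapping groups. In its introns, differences of both signs occurred. The peak from 38868201 to 38868800 had 6.45 and 11.9 in old against 3.98 and 3.56 in young samples (1.04 on the log2 scale with standard error 0.38, adjusted p = 0.174 with limma), resting on 15 and 39 counts against 12 and 12. The peak from 38882201 to 38882500 had 2.58 and 2.13 in old against 5.64 and 3.27 in young samples (-0.67, adjusted p = 0.466 with limma). Over its 11 peaks, 5 were higher and 6 lower in old MSCs.

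Fgf10, the mesenchymal ligand of epithelial Fgfr2, had an even promoter, with 83.5 and 90.9 in old and 85.6 and 89.3 in young samples on chromosome 13 from 118713201 to 118717400. Its introns were less even, and 9 of its 11 peaks were lower in old MSCs. The record of Fgf10 begins at 118669791, upstream of its 1 protein-coding start, so the 11 include the peak from 118695001, which lies before that start. Both old values lay below both young values at 4 of the 11 peaks, beside 24.2% of all peaks, and above them at 2, beside 23.2%. The intronic peak from 118736401 to 118737200, whose centre is printed above, had 9.90 and 9.15 in old against 20.9 and 14.5 in young samples, a difference of -0.81 on the log2 scale (standard error 0.29, adjusted p = 0.173 with limma). A peak nearer to the promoter, from 118719901 to 118720600, had 7.32 and 6.71 in old against 10.9 and 12.5 in young samples (-0.66, limma adjusted p = 0.302). The peak from 118783301 to 118783600 had the lowest fold change of the 67 (-0.91, limma adjusted p = 0.317), on 9 and 5 counts in old and 13 and 24 in young samples. The 2 peaks that were higher in old MSCs were an intronic one from 118763101 to 118764300, with 21.5 and 24.7 in old and 9.62 and 19.9 in young samples (0.69, adjusted p = 0.268 by limma), and a weak one from 118695001 to 118695600 (0.18). The median log2 fold change over the 11 peaks was -0.17, and no peak of the gene passed the threshold. The median was -0.036 and -0.069 with old replicate 1 set against each young sample, and -0.33 and -0.46 with old replicate 2, so its size rested on old replicate 2.

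Fgf18 and Fgf9, both ligands of skeletal development, had promoters at which old and young values overlapped. The Fgf18 promoter peak on chromosome 11, from 33145501 to 33150400, had 150 and 191 in old and 187 and 153 in young samples, a log2 fold change of -0.0028. A pair of neighbouring intronic peaks differed in opposite directions. From 33126101 to 33128800 the values were 33.6 and 31.7 in old against 53.1 and 37.4 in young samples (-0.44), and at the next peak, from 33128901 to 33130000, they were 24.1 and 29.3 against 16.6 and 18.7 (0.57, limma adjusted p = 0.270). Peaks of chromosome 11 as a whole were higher in old replicate 2 than those of the autosomes by 0.15 and 0.19 on the log2 scale (against young replicates 1 and 2), and by -0.00065 and 0.042 in old replicate 1. On chromosome 3, which holds Fgf2, the same differences were -0.069 and -0.13 in old replicate 2 and -0.00045 and -0.033 in old replicate 1. The part of these shifts in the Fgf18 and Fgf2 values was not tested. The single Fgf9 peak, 8000 bp wide on chromosome 14 from 58068501, had 108 and 96.1 in old and 110 and 98.2 in young samples.

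Fgf7, the keratinocyte growth factor, lies within Fam227b and was largely covered by 3 wide peaks. The promoter peak on chromosome 2, from 126033101 to 126057100, had 235 and 316 in old and 256 and 272 in young samples, and the groups overlapped. The next one, from 126059501 to 126076800, had 206 and 192 in old and 209 and 204 in young samples. Towards the end of the gene the values were lower in old MSCs, with 12.9 and 10.7 against 14.3 and 16.0 in the peak from 126085701 to 126087500 (-0.34, standard error 0.28, limma adjusted p = 0.590). The log2 fold change was below 0 at 4 of its 5 peaks, with a median of -0.055.

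At Fgfr2, 11 of 13 peaks had higher values in old MSCs, and none passed the threshold. At its promoter, on chromosome 7 from 130262201 to 130267300, the groups overlapped, with 159 and 161 in old and 173 and 156 in young samples (-0.037 on the log2 scale with standard error 0.15, adjusted p = 0.932 with limma). Of its 11 peaks outside promoters, 10 were higher in old MSCs and 8 of them had both old values above both young values, beside 23.2% of all peaks. The largest difference was at the peak printed above, from 130200901 to 130202100 over a coding exon 64.8 kb into the gene, where the values were 18.9 and 16.5 in old and 7.96 and 8.01 in young samples. Its log2 fold change of 1.05 (standard error 0.29) had the lowest adjusted p of the 67 peaks, 0.0763 with limma. It rests on 44 and 54 counts in old and 24 and 27 in young samples.

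Smaller differences in the same direction lay on both sides of it. The peak from 130173501 to 130179100, over coding exons towards the end of the gene, had 61.5 and 65.0 in old and 45.4 and 45.1 in young samples (0.47). In introns, the peak from 130205101 to 130207800 had 21.9 and 25.3 against 16.3 and 14.5 (0.59), and the peak from 130246001 to 130249600 had 30.6 and 35.1 against 26.2 and 16.9 (0.61). The widest peak of the gene, 10000 bp from 130219301, had 92.1 and 78.7 in old and 65.0 and 69.4 in young samples (0.34). Old samples were above young ones at all 5 of these peaks, and limma's adjusted p was between 0.0763 and 0.382. Outside promoters, the only peak lower in old MSCs was a weak one from 130250401, with 6.02 and 6.40 in old and 6.63 and 7.72 in young samples (-0.18). The median log2 fold change over the 13 peaks was 0.26, and it lay between 0.21 and 0.40 when each old sample was set against each young sample (4 pairs). On the values as deposited the median was -0.019 and 6 of the 13 peaks were higher in old MSCs, while the median of all peaks was -0.27. At the 14 peaks between the window of the gene and its upstream neighbour Ate1, 6 were higher and 8 lower in old MSCs, with a median of -0.13. Both old values lay below both young values at 6 of these 14 peaks, beside 24.2% of all peaks, and above them at 2, beside 23.2%. The 2 regions share the samples and the library scaling, and their difference was not tested.

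**Figure D3:**
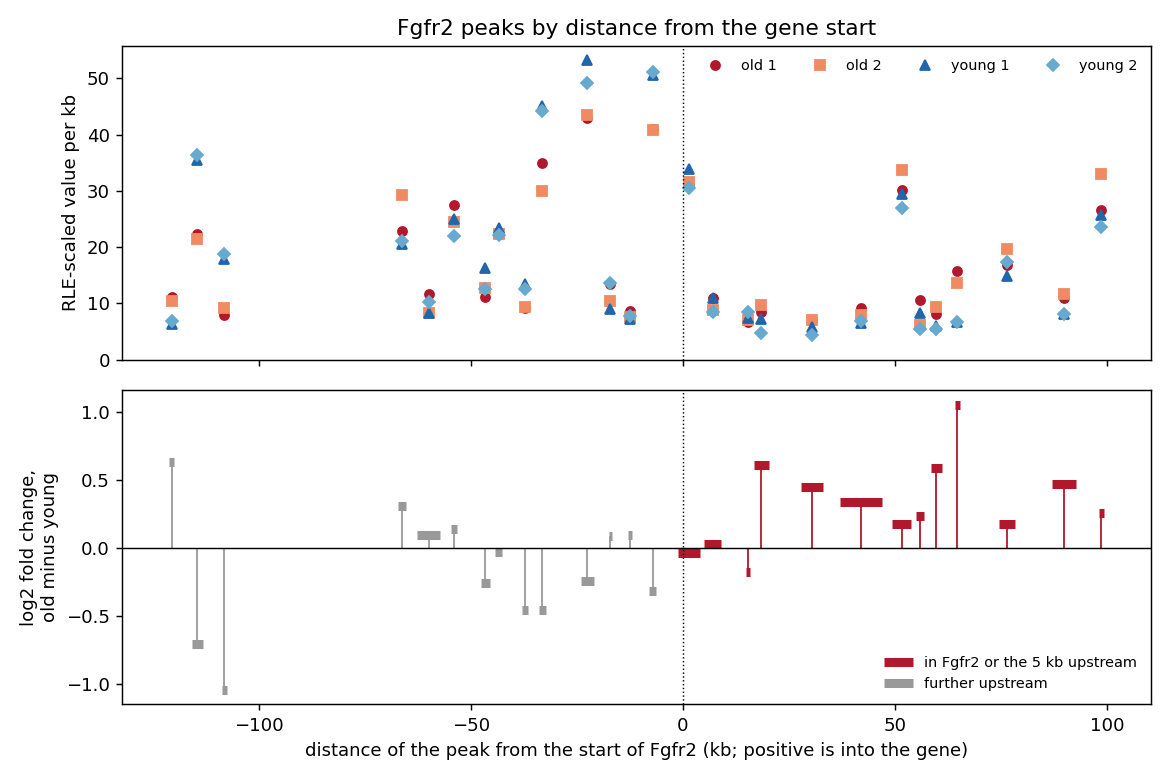
Peaks of Fgfr2 and of the region upstream of it by distance from the gene start in kb (horizontal axis, positive into the gene). The upper panel gives the RLE-scaled value per kb in each of the 4 samples and the lower panel the log2 fold change of each peak (bars as wide as the peak); inside the gene 11 of 13 peaks lie above 0, with the highest at 1.05, and upstream 6 of 14.

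Fgfr1, a receptor of mesenchymal cells, had a promoter peak on chromosome 8 from 25518001 to 25522800 with 146 and 198 in old and 172 and 148 in young samples. Its dense intronic peak from 25534101 had 202 and 241 in old and 230 and 233 in young samples, and the groups overlapped at both. Towards the end of the gene, the peak from 25574801 to 25576600 had 16.4 and 26.2 in old and 16.9 and 10.4 in young samples (0.61, limma adjusted p = 0.333). At Fgfr3, the receptor that restrains cartilage growth, the main promoter peak on chromosome 5 from 33720301 to 33724300 had 70.1 and 79.0 in old and 83.3 and 69.7 in young samples. The peak upstream of it, from 33715701 to 33717700, had 21.5 and 22.0 in old and 10.6 and 14.5 in young samples, a difference of 0.76 on the log2 scale (standard error 0.27, adjusted p = 0.169 with limma). Fgfrl1, which lacks the kinase domain of the other receptors, had 1 peak of 10100 bp, from 108691201 to 108701300 on chromosome 5. Its values were 340 and 279 in old and 369 and 344 in young samples, so that both old values lay below both young values. The difference was -0.21 on the log2 scale (standard error 0.13, adjusted p = 0.461 with limma). It was -0.36 without old replicate 1 (limma adjusted p = 0.00342, in a setting where 8.83% of all peaks passed) and -0.057 without old replicate 2 (limma adjusted p = 0.810), so that it rested on old replicate 2.

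**Figure D4:**
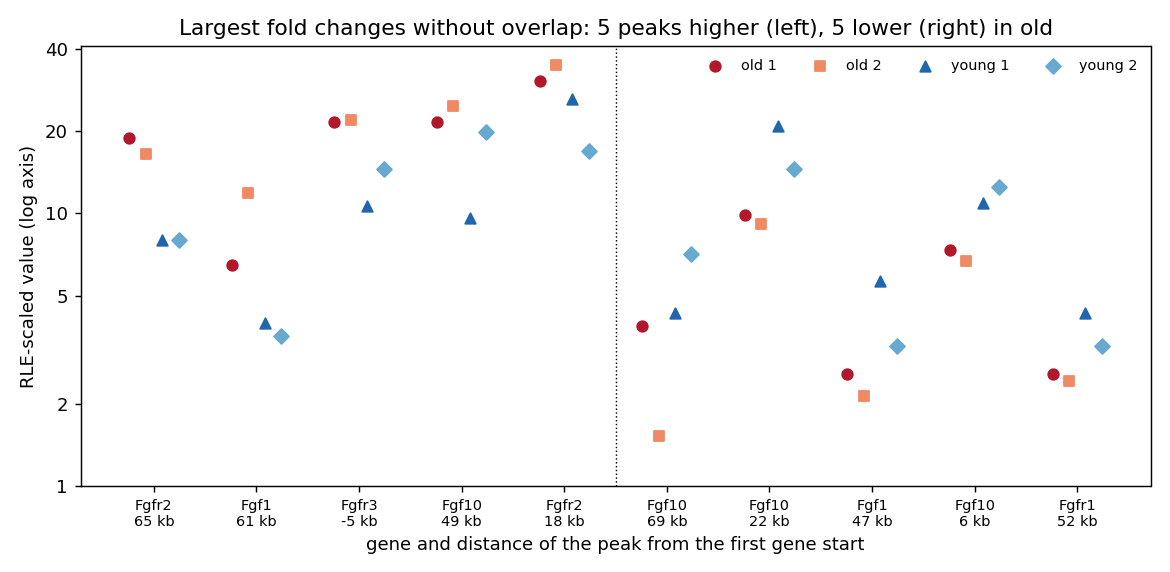
RLE-scaled value (log axis) in each of the 4 samples at the 10 peaks with the largest log2 fold changes among those whose groups did not overlap, 5 higher and 5 lower in old MSCs, each named by its gene and its distance in kb from the first start of the gene. The Fgfr2 peak at the left has 18.9 and 16.5 in old and 7.96 and 8.01 in young samples, and the lowest value shown is 1.52, in old replicate 2 at Fgf10.

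When the values of all peaks of a gene were summed, 0 of the 10 genes passed the threshold, beside 2 of 17284 genes (0.0116%), and 0 of the 10 had an unadjusted p under 0.05 in limma, beside 8.35% of all genes. Fgfr2 had summed values of 726 and 741 in old and 654 and 604 in young samples, a difference of 0.22 on the log2 scale (standard error 0.11, adjusted p = 0.605 with limma), and 15.1% of all genes had a fold change at least as high. Fgfr3 had 120 and 117 in old and 115 and 97.0 in young samples (0.17), and in both genes the old values lay above the young ones. Fgf2 had 625 and 807 in old and 673 and 624 in young samples (0.13), so that old replicate 1 lay within the young range. Fgfrl1 was the lowest of the 10 genes at -0.21, and Fgf10, with 214 and 199 in old and 208 and 238 in young samples, was at -0.11. Fgf1, Fgf7, Fgf9, Fgf18 and Fgfr1 lay between -0.033 and 0.045. Without old replicate 1, Fgf2 (0.31, adjusted p = 0.000871) and Fgfrl1 (-0.36, adjusted p = 0.00140) passed in limma, beside 22.4% of all genes. Without old replicate 2 they were at -0.043 and -0.057 (limma adjusted p = 0.817 and 0.782).

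**Figure D5:**
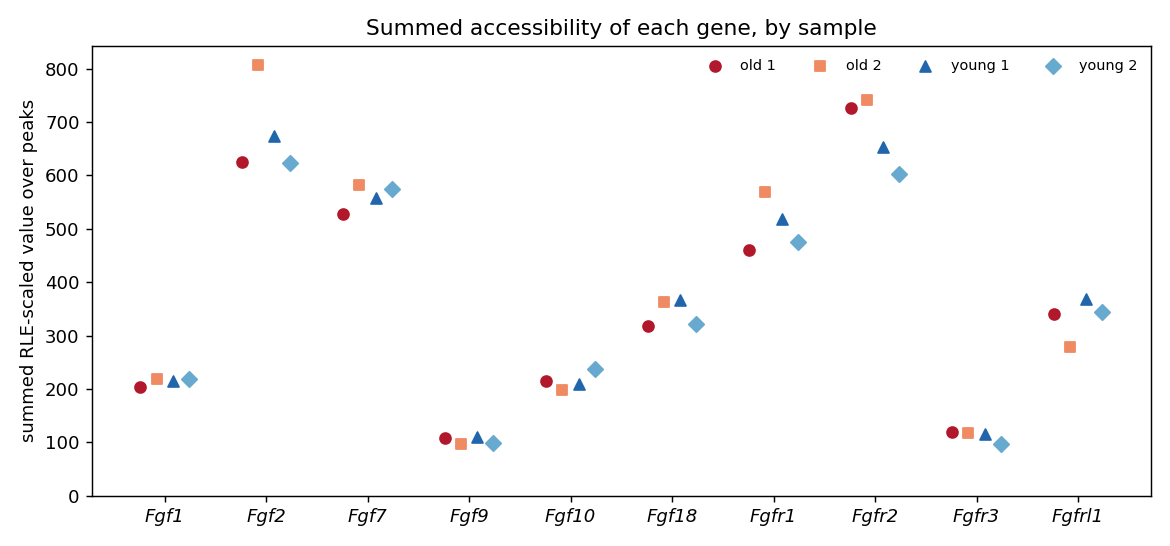
Summed RLE-scaled value over the peaks of each gene (vertical axis) in each of the 4 samples. Old samples lie above young samples at Fgfr2 and Fgfr3 and below them at Fgfrl1, and at the other genes the groups overlap.

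The 235 peaks that only the long Fgfr2 transcript reached had a median log2 fold change of 0.058, with 132 higher and 103 lower in old MSCs, and 28 of them (11.9%) had an unadjusted p under 0.05 in limma, beside 16.4% of all peaks. The lowest adjusted p of the 302 peaks was among them, 0.0504 with limma, at a peak on chromosome 7 from 132169201 to 132170500 that overlapped no other protein-coding gene. Its values were 39.6 and 26.2 in old and 59.4 and 66.8 in young samples, a log2 fold change of -0.94 (standard error 0.23). Nearer to Fgfr2, 108 kb upstream of its start, the peak from 130373801 to 130375000 had 9.47 and 10.98 in old and 21.6 and 22.6 in young samples (-1.04, limma adjusted p = 0.0649). The highest fold change, from 133108801 to 133109400 at Ctbp2, was 1.33, with 7.32 and 7.62 in old and 1.33 and 3.86 in young samples. Other peaks without overlap of the groups were the peak from 131007101 to 131007500 with 4.30 and 2.44 in old and 9.62 and 9.20 in young samples (-1.29) and the peak from 131655701 to 131657000 with 21.1 and 19.5 against 12.3 and 9.79 (0.83). The peak from 132785301 at Fam53b (0.78) and the one from 130698701 at Tacc2, which held 2 and 0 counts in old and 6 and 10 in young samples, completed the 5 in each direction. The densest peaks of the long record belonged to the neighbouring genes Bub3 (84.8 per kb), Zranb1 (71.1) and Plekha1 (61.1), where fold changes lay between -0.14 and 0.063. Without old replicate 1, the peaks from 132169201 and 131007101 were at -1.24 and -1.62 (limma adjusted p = 1.27e-07 and 0.00310), and without old replicate 2 at -0.65 and -0.96 (0.0265 and 0.172). Of the peaks of the long record, 14 lie between the window of Fgfr2 and Ate1, and the others lie at Ate1 or further upstream. No measurement here ties any of them to Fgfr2.

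The accessibility of 63 other genes of the pathway was examined by the same overlap rule, and 62 of them had at least 1 of 396 peaks. None of the 396 peaks passed the threshold with limma on the values or with limma-voom on recovered counts, and 67 (16.9%) had an unadjusted p under 0.05 in limma, beside 16.4% of all peaks. Their median log2 fold change was 0.016, with 201 higher and 195 lower in old MSCs. By role, the 193 peaks of the ligand carriers and heparan sulfate proteins had a median of -0.097, with 16 higher and 22 lower at that level, and the 81 peaks of adaptors and kinases a median of 0.088, with 7 higher and 3 lower. The 35 peaks of the feedback inhibitors had 3 higher and 0 lower, the 17 peaks of the target factors 1 higher and 0 lower, the 22 of the transmembrane modulators 4 higher and 1 lower, the 42 of the other FGF genes 3 higher and 5 lower, and the 6 of Fgfr4 and the co-receptors Kl and Klb 1 higher and 1 lower.

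The lowest adjusted p in this list was at an intronic peak of Fgf12, an intracellular FGF homologue, on chromosome 16 from 28336601 to 28337700. Its values were 5.59 and 3.96 in old and 12.6 and 24.3 in young samples, a difference of -1.70 on the log2 scale (standard error 0.35, adjusted p = 0.0282 with limma). An intronic peak of the glypican Gpc3 on chromosome X from 52570001 had 3.01 and 0.305 in old against 6.63 and 8.31 in young samples (-1.88, limma adjusted p = 0.0652). Over each group this was 8 (7 and 1) against 48 (20 and 28) counts, or 5.27-fold lower in old MSCs (exact 95% interval from 2.47 to 12.9, for counting error only). The interval covers neither the spread between samples nor the choice of the peak by its fold change. At an intronic peak of the syndecan Sdc2, the old samples had 0 counts and the young samples 8 and 7 (-1.75, limma adjusted p = 0.0913). Counts this low do not fix the size of that difference. Among the heparan sulfate proteins with higher values in old MSCs, an exonic peak of the syndecan Sdc3 on chromosome 4 from 130825301 had 12.5 and 10.98 in old and 3.32 and 4.16 in young samples (1.43, limma adjusted p = 0.0501). An intronic peak of Ext1, which builds heparan sulfate chains, had 15.9 and 17.7 in old and 7.30 and 6.23 in young samples (1.20). The sulfotransferase gene Hs2st1 had an intronic peak with 5.59 and 9.45 in old and 3.32 and 2.08 in young samples (1.19). These 6 peaks were named for the size of their fold change, and 1 of the 396 peaks had a limma adjusted p under 0.05, beside 1.12% of all peaks. Without old replicate 1, 31 of the 396 peaks passed the threshold of 0.01, beside 8.83% of all peaks, and without old replicate 2, 4 did, beside 1.43%. The Fgf12 peak was at -1.92 without old replicate 1 and at -1.48 without old replicate 2. It was at -2.15 without young replicate 1 and at -1.25 without young replicate 2, so that its size leaned on young replicate 2. The Gpc3 and Ext1 peaks were at -2.76 and 1.28 without old replicate 1, and at -1.06 and 1.14 without old replicate 2.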

How the data were processed

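ATAC-seq scores of 2 old and 2 young bone MSC samples were analysed at 117282 peaks. The deposited values, named RPKM by the authors, are a score per peak and sample: counts scaled to 10000000 per library and not divided by peak length (100% of values were whole multiples of one step, within 0.01). The methods of the paper give bowtie2 for alignment to mm10, Picard Tools for duplicate removal and chromstaR for peaks and their values, for hypoxia- and normoxia-cultured cells; the old and young cells are not described separately.

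Library totals ranged from 28259470 to 32559794 counts, at which 3 counts gave a deposited value between 0.921 and 1.06. Values were divided by RLE factors (0.813 and 1.01 in old, 1.07 and 1.15 in young samples), and log2(value + 1) was fitted in R 4.3.3 by limma 3.58.1 (lmFit, then trended and robust eBayes), with the Benjamini-Hochberg method over all peaks or all 17284 genes with a peak and an adjusted p under 0.01 as threshold. The step was run on simulated data with 1 fixed dispersion for all peaks and changes placed only at stronger peaks. That run does not give its error rate or power in these samples. An exact permutation test of 2 samples against 2 cannot go below p = 0.3333. Members, gene lists and the rule for named peaks (the strongest promoter peak of each gene, peaks past the threshold, the 5 largest non-overlapping fold changes in each direction, the 5 densest peaks, and 3 pathway peaks in each direction) were chosen with earlier results of these data known. Python 3.11.15, numpy 2.4.6, pandas 2.3.3, pysam 0.24.0 and matplotlib 3.10.9 were used. Alternatives were other scalings, pseudocounts, filters, moderation, thresholds, gene windows, a replicate block, limma-voom and leaving out each sample.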

Additional observations from a re-analysis of the deposited data

How the results depend on the processing

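The counts of peaks past the threshold were 0 under every alternative run other than those named here. With values as deposited, 1 of the 302 peaks by the rule and 3 of the 396 pathway peaks passed (1.18% of all peaks passed then), with the replicate block 2 pathway peaks (1.08% of all peaks passed then), and at a false discovery rate of 0.05 1 pathway peak (1.12% of all peaks). Leaving out each sample gave between 0 and 12 of the 302 peaks, 0 and 3 of the 67, 0 and 2 of the 14 promoter peaks, 0 and 31 of the pathway peaks and 0 and 2 of the gene sums, with the highest number without old replicate 1 each time, where 8.83% of all peaks, 11.2% of all promoter peaks and 22.4% of all gene sums passed. The median log2 fold change was -0.22 (302 peaks) and -0.26 (67 peaks) with values as deposited and 0.11 and 0.092 with equal total signal, while leaving out samples moved it between 0.034 and 0.057 and between 0.013 and 0.063. The replicate block used numbers that the samples share only as a label (the deviations of same-numbered samples correlated at r = -0.099), and it changed no other count. The taking of Fgfr2 without its long transcript, chosen after seeing the data, left all these counts at 0 in the main analysis.

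Among 39 named peaks, none was past the threshold, and signs reversed mostly at promoters near 0. With values as deposited, fold changes were -0.20 at the Fgfr1 promoter, -0.24 at Fgf7, -0.15 at the Fgf2 peaks from 37377601 and 37359601, -0.22 at the peak from 130864901 and -0.12 at the Fgf1 promoter. With equal total signal they were 0.066 and 0.011 at the Fgf18 peaks from 33145501 and 33122101, 0.035 at the Fgfr3, 0.032 at the Fgfr2, 0.063 at the Fgf10 and 0.038 at the Fgf9 promoter and 0.0028 at the Fgfr1 peak from 25534101. With quantile normalization they were 0.048 (Fgf18), 0.0053 (Fgf9), 0.00999 (Fgfr2) and 0.017 (Fgf10), and with limma-voom 0.018 (Fgf18). Leaving out each sample, the ranges that crossed 0 were -0.14 to 0.42 and -0.13 to 0.41 at the 2 Fgf2 peaks, -0.16 to 0.25 at Fgf7, -0.12 to 0.063 at Fgf9, -0.057 to 0.052 at Fgf10, -0.17 to 0.17 at Fgf18, -0.12 to 0.31 and -0.18 to 0.058 at the Fgfr1 promoter and intron, -0.12 to 0.035 at Fgfr2, -0.16 to 0.088 at Fgfr3 and -0.11 to 0.23 at the peak from 130864901. The causes were not tested. The filter on low values gave no value for 11 of the named peaks, which it removed. Of the 67 peaks, 10 had under 30 counts in every sample, which limits the precision there.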
